A study of Mus musculus with 6 samples.

Results

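The SOCS (suppressor of cytokine signaling) family was examined in bone marrow-derived basophils (BMBAs), basophils grown in culture from mouse bone marrow cells. Its members were taken by gene symbol from a deposited table of raw read counts. All 8 members, Cish and Socs1 to Socs7, were present among the 37043 gene symbols of the table, and all 8 were expressed highly enough to be tested. The cells came from wild-type C57BL/6J mice and all cultures had been grown for 7 days with 0.3 ng/mL of a cytokine, named as IL-3 in the study's methods, before basophils were enriched with beads against CD49b. The cultures were then given PBS (3 libraries) or 10 ng/mL IL-3 (3 libraries) for 6 h, so that the PBS group had also been exposed to IL-3 during growth. The study made this comparison to ask whether IL-3 drives basophil precursors out of the bone marrow.

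IL-3 is a cytokine that expands and activates basophils. Its receptor joins an IL-3-binding alpha chain to a signaling beta chain, activates the kinase JAK2 and passes the signal chiefly to the transcription factor STAT5. SOCS proteins are the classical feedback inhibitors of this route. Each carries an SH2 domain, which binds phosphorylated tyrosines of receptors or kinases, and a C-terminal SOCS box, which binds the elongins B and C and a CUL5 ubiquitin ligase. CIS (the product of Cish), SOCS1, SOCS2 and SOCS3 are the members that cytokines are best known to induce, whereas SOCS4 to SOCS7 have long N-terminal regions and have been linked to receptor tyrosine kinases and insulin signaling.

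Libraries held 10537540 to 13999287 counts. Expression is given as CPM, read counts scaled to a common library size, with mean ± SD over the 3 libraries of a group, and a gene is said to have risen or fallen where edgeR's quasi-likelihood test gave an adjusted p below 0.05 over the 16675 genes tested. The study describes the replicates as separate cultures, without saying whether they came from separate animals. The p-values then measure the spread between these cultures. The basophil markers Mcpt8 and Prss34 were abundant in both groups, at 3066 ± 171 and 5615 ± 323 CPM in PBS. The 8 basophil markers summed to 10250 to 11444 CPM in PBS and 15297 to 15494 CPM with IL-3 (6 higher, 1 lower). Markers of monocytes and macrophages were also present, and in PBS their summed level was above that of the basophil markers. Most of it came from Lyz2, at 10456 ± 432 CPM in PBS and 5348 ± 316 CPM with IL-3. The summed level was lower with IL-3, at 11701 to 12628 CPM in PBS and 6134 to 6760 CPM with IL-3 (6 of 9 tested markers lower, 2 higher). Mast cell markers moved the other way, from 841 to 945 CPM in PBS to 1438 to 1572 CPM in IL-3 (4 of 6 tested markers higher). Of 7 markers of NK cells, 5 had too few counts for a test and Klra8 was at 0 in all libraries, while Gzmb and Nkg7, which other activated cells also make, rose. Neutrophil markers summed to 122 to 159 CPM in PBS and 195 to 259 CPM in IL-3 (of 7 tested, 3 higher and 1 lower), eosinophil markers to 157 to 175 and 98.4 to 138 CPM (of 6 tested, 1 higher and 3 lower), and erythroid markers to 100 to 219 and 54.6 to 101.1 CPM (of 4 tested, 2 lower and Alas2 at 0 in all libraries). Of all tested genes, 18% were higher and 20.2% lower. The part of other cell types in the SOCS values was not tested. In bulk RNA, a change in the number of cells of a type and a change of RNA per cell cannot be told apart.

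Of the 8 SOCS members, 6 rose with IL-3, none fell and 2 were not called. Among all tested genes 38.2% were called, 18% as higher and 20.2% as lower. The rises were graded. Cish, Socs1 and Socs3 increased 16.2-fold, 17.4-fold and 12.3-fold, Socs2 increased 4.61-fold, and Socs5 and Socs4 increased 1.83-fold and 1.26-fold. Rises over 2-fold were seen in 4 of the 8 members, compared with 3.9% of all tested genes. Together the 8 genes took 0.0305% to 0.0340% of the counts of each PBS library and 0.252% to 0.272% of each IL-3 library. The summed expression of the family went from 307 ± 12.6 CPM to 2796 ± 71.9 CPM (SD, n = 3 each), 9.12-fold more.

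**Figure D1:**
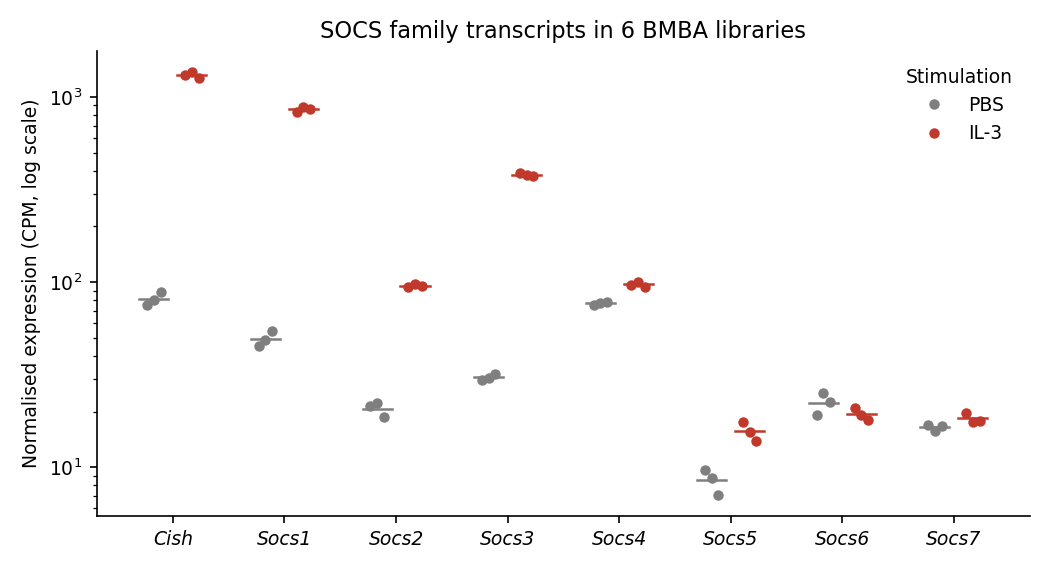
Normalised expression (CPM, log scale) of the 8 SOCS genes, with a point for each library and a bar at the group mean, PBS in gray and IL-3 in red (n = 3 each). Points of Cish lie at 75.5 to 88.4 CPM in PBS and 1257 to 1364 CPM in IL-3, whereas those of Socs6 overlap between groups.

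Cish encodes CIS, which binds activated cytokine receptors and limits STAT5 signaling. It had 75.5, 79.6 and 88.4 CPM in the PBS libraries, against 1313, 1364 and 1257 CPM in the libraries given IL-3. All IL-3 libraries lay far above all PBS libraries, and the lowest IL-3 value was 14.2 times the highest PBS value. Its log2 fold change of 4.01 (SE 0.0642, edgeR adjusted p 3.74e-16) ranked 21st from the top among all tested genes. Cish spans chromosome 9, 107296026 to 107302784, plus strand (GRCm38, ENSMUSG00000032578.7). Gm17041 and Gm17040 overlap it on the opposite strand, and no source used here says whether reads were counted by strand, so reads of these genes may not be separable. Gm17041 had 4.33 ± 0.694 CPM in PBS, against 8.28 ± 0.757 CPM with IL-3, and Gm17040 had 1.61 ± 0.520 and 2.76 ± 0.290 CPM, small amounts beside Cish.

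Socs1 encodes an inhibitor that blocks the catalytic site of JAK kinases and is best known for restraining interferon-gamma and gamma-chain cytokine signals. Its 3 PBS libraries had 45.0, 48.7 and 54.4 CPM and its IL-3 libraries had 833, 883 and 863 CPM. The groups were again widely apart, by a factor of 15.3 between the nearest libraries. Its log2 fold change, 4.12 (SE 0.0683, edgeR adjusted p 3.83e-16), ranked 18th. It lies at chromosome 16, 10782240 to 10785536, minus strand (ENSMUSG00000038037.5).

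Socs3 encodes the other member with a kinase inhibitory region, which acts on receptors of the IL-6 and G-CSF type. Expression was 29.8, 30.5 and 31.9 CPM in PBS, against 386, 378 and 373 CPM with IL-3. Replicates of Socs3 were close together, with coefficients of variation of 3.49% and 1.65%, near the 5.29% and 1.504% that counting alone gives. Its log2 fold change was 3.63 (SE 0.0607, edgeR adjusted p 3.83e-16), ranked 38th. The gene lies at chromosome 11, 117966079 to 117970047, minus strand (ENSMUSG00000053113.3).

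Socs2, whose product is known for limiting growth hormone signaling, rose less. It had 21.4, 22.2 and 18.7 CPM in PBS, against 94.6, 97.2 and 95.4 CPM with IL-3. No IL-3 library came near the PBS range, and the nearest libraries differed 4.26-fold. The log2 fold change was 2.20 (SE 0.0784, edgeR adjusted p 2.88e-12), ranked 156th. Socs2 lies at chromosome 10, 95385362 to 95417180, minus strand (ENSMUSG00000020027.18). Of the 50-base stretches of its annotated transcripts, 4.53% also occur in transcripts of other genes, whereas Socs1 and Socs3 had none and Cish 0.137%.

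Because cytokine-induced SOCS genes are classical STAT5 and STAT3 targets, the reference sequence around their start sites was searched for the palindrome TTCNNNGAA, the core that STAT5 and STAT3 bind, and for the wider form TTCNNNNGAA, which STAT6 prefers. Each motif equals its own reverse complement, so a search of either strand covers both. RefSeq windows (GRCm38.p6, 250 bases before to 50 after a start site) were at hand for 4 of the 8 members, Cish, Socs1, Socs3 and Socs4. TTCNNNGAA was found in 2 of them, Cish and Socs3, and in 8.3% of the 32851 windows of all genes. The wider form was found in none of the 4 and in 6.95% of all windows. Cish held 2 sites, the first bases of which are the 1st and 12th bases after its RefSeq start, and 0.457% of all windows held 2 or more. Socs3 held 1 site, with its first base at -154 relative to the start. The 30 bases around the Cish sites (chr9:107296654-107296683, plus strand) are shown 5′ to 3′. So are the 250 bases before the starts of Socs3 (chr11:117969367-117969616, minus strand) and Socs1 (chr16:10785537-10785786, minus strand). A stretch of 250 bases was shown only where no annotated UTR overlapped it. Cish, Socs1 and Socs3 are also the members that rose most. RefSeq and GENCODE starts differ for 2 of these genes. The Cish sites lie within the 5′ UTR of the GENCODE transcript that starts furthest upstream. The Socs3 stretch lies upstream of the protein-coding GENCODE transcript but inside the gene span given above, which a non-coding transcript extends. Capitals mark TTCNNNGAA.
Cish: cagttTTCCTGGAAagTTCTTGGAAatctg
Socs3: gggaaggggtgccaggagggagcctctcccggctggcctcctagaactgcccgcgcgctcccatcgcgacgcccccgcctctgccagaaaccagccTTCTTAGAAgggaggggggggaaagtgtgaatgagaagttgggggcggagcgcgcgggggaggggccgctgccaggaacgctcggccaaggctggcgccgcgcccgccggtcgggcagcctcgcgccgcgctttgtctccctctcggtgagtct
Socs1: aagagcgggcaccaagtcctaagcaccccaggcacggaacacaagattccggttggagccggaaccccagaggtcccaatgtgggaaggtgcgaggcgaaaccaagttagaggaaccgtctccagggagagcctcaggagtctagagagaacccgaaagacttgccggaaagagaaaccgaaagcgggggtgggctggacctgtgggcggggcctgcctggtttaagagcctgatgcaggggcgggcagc
A match describes the letters of the reference and is not evidence of binding in these cells. Socs1, which had the highest log2 fold change of the family, and Socs4, which rose by 0.33, both lacked either form within this window, which says nothing about sites elsewhere.

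**Figure D2:**
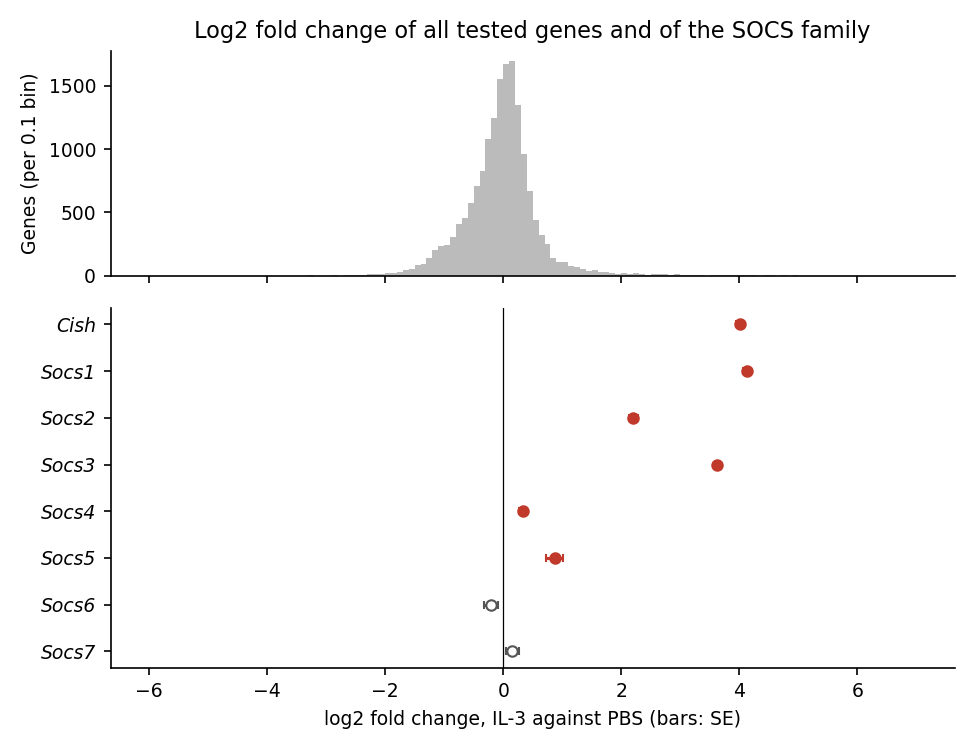
Log2 fold change of IL-3 against PBS for all 16675 tested genes (upper histogram, genes per 0.1 bin) and for each SOCS member (lower panel, bars are SE, filled points passed an adjusted p of 0.05). Cish, Socs1 and Socs3 lie between 3.63 and 4.12, while Socs6 and Socs7 lie near 0.

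The other members moved little or were not called. Socs5, which has been linked to the IL-4 and EGF receptors, had few reads, with 9.74, 8.77 and 7.14 CPM in PBS, against 17.6, 15.6 and 13.96 CPM with IL-3. The groups did not overlap, but the nearest libraries differed only 1.43-fold. Its log2 fold change was 0.87 (SE 0.150, edgeR adjusted p 0.000238). Socs4, a close relative of Socs5, had 75.5, 77.4 and 78.3 CPM in PBS, against 96.8, 100 and 94.5 CPM with IL-3. This rise was small yet larger than the spread between replicates, with a log2 fold change of 0.33 (SE 0.0593, edgeR adjusted p 0.000329), ranked 3202nd. Scaling by library totals alone, which moved the median log2 fold change of all genes to -0.17, left Socs4 at 0.17 with an adjusted p of 0.0468.

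Socs6, whose product binds the receptor KIT, was the only member with a lower mean in IL-3. It had 19.2, 25.3 and 22.6 CPM in PBS, against 21.0, 19.1 and 17.9 CPM in IL-3, and the groups overlapped. Its log2 fold change of -0.21 (SE 0.121) was not called, with an edgeR adjusted p of 0.191. Under library totals it was -0.37 with an adjusted p of 0.0270, where the median of all genes was -0.17. Socs6 also shared 6.14% of its 50-base stretches with other genes, the highest share in the family. Socs7, linked to insulin signaling and to the adaptor NCK, had 17.02, 15.8 and 16.7 CPM in PBS, against 19.7, 17.7 and 17.8 CPM with IL-3. Although its groups did not overlap, its log2 fold change of 0.15 (SE 0.112) was not called (edgeR adjusted p 0.309), and it was -0.0075 under library totals. All IL-3 libraries lay above all PBS libraries in 7 of the 8 members and in 23.8% of all tested genes. Groups apart in either direction were found in 48.2% of tested genes.

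Levels of different genes were compared per kilobase of the longest annotated coding transcript (CPM per kb). In PBS-treated BMBAs the order was Cish at 28.5 ± 2.32, Socs1 at 16.98 ± 1.64, Socs3 at 12.0 ± 0.420, Socs4 at 11.2 ± 0.208, Socs2 at 9.34 ± 0.831, Socs6 at 3.71 ± 0.507, Socs7 at 2.35 ± 0.0922 and Socs5 at 1.84 ± 0.283 CPM per kb. No neighbours in this order overlapped over the 3 libraries. In IL-3-stimulated BMBAs the first 3 places were unchanged, with Cish at 460 ± 18.8, Socs1 at 296 ± 8.66 and Socs3 at 149 ± 2.46 CPM per kb. Socs2 stood at 43.1 ± 0.599 and had passed Socs4, which stood at 14.1 ± 0.406 CPM per kb. Socs5 and Socs6 overlapped at 3.38 ± 0.389 and 3.20 ± 0.261, and Socs7 was last at 2.62 ± 0.165 CPM per kb.

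The make-up of the family thus differed between groups. Of the summed length-scaled level, Cish held 33.1 ± 1.29% in PBS and 47.4 ± 0.818% in IL-3, and Socs1 held 19.7 ± 1.03% and 30.5 ± 0.798%. The share of Socs3 was nearly level, at 14.01 ± 0.196% and 15.3 ± 0.412%. Socs2 held 10.9 ± 1.33% in PBS and 4.44 ± 0.0739% in IL-3 although its own expression rose. Socs4 held 13.1 ± 0.350% in PBS and 1.45 ± 0.00611% in IL-3. Cish, Socs1, Socs2 and Socs3 together made up 77.7 ± 0.884% of the family level in PBS and 97.6 ± 0.0863% in IL-3. With coding length in place of transcript length the corresponding totals were 74.99% and 97.3%. Socs4 then ranked above Socs3 in PBS, and Socs5 in place of Socs7 had the lowest mean share in IL-3.

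**Figure D3:**
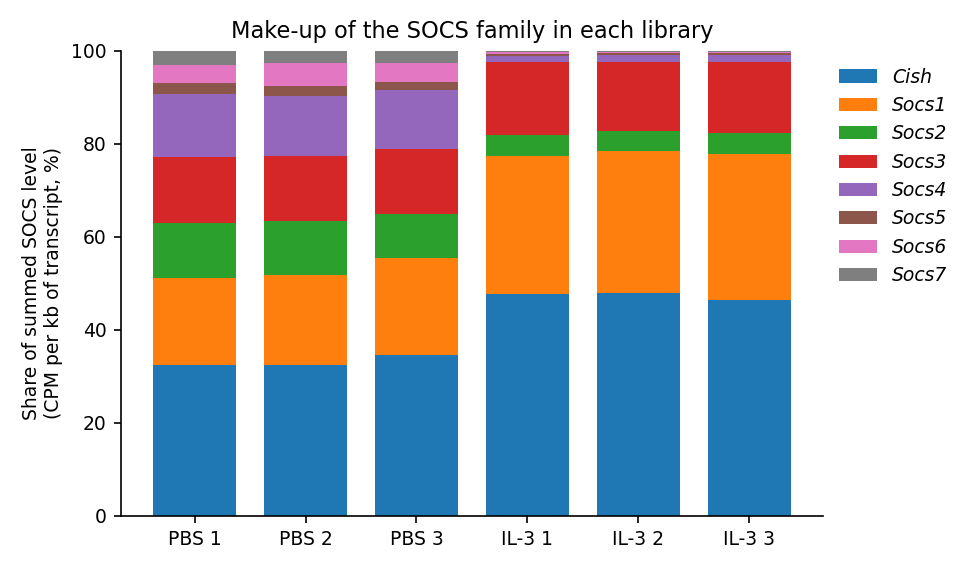
Share of each SOCS gene in the summed family level (CPM per kb of transcript, percent) in each of the 6 libraries, stacked to 100%. Cish, Socs1 and Socs3 take up more of the IL-3 bars, with Cish at 47.4% against 33.1% in PBS, and Socs4 shrinks from 13.1% to 1.45%.

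To compare the members with each other without any scaling between libraries, the log2 ratio of each member's counts to those of Cish was taken within every library. Socs1 kept close to Cish, with -0.75, -0.71 and -0.70 in PBS and -0.66, -0.63 and -0.54 in IL-3, a difference of 0.11. Socs3 fell slightly behind Cish, from -1.40 ± 0.0661 to -1.79 ± 0.0530, a difference of -0.39 that equals a 1.31-fold smaller rise. Relative to Socs1 the ratio of Socs3 differed by -0.50. The other members fell behind further. Socs2 differed by -1.81, a 3.50-fold smaller rise, Socs5 by -3.13, Socs4 by -3.68, Socs7 by -3.86 and Socs6 by -4.22. In all 7 ratios to Cish the IL-3 libraries lay apart from the PBS libraries. The two-sided exact permutation test gave p = 0.1 for each of the 7 (adjusted p 0.1), the smallest value that 3 against 3 libraries allow, so none could pass 0.05. No ratio changed sign when any library was left out. For Socs1 the difference was then 0.077 to 0.13.

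**Figure D4:**
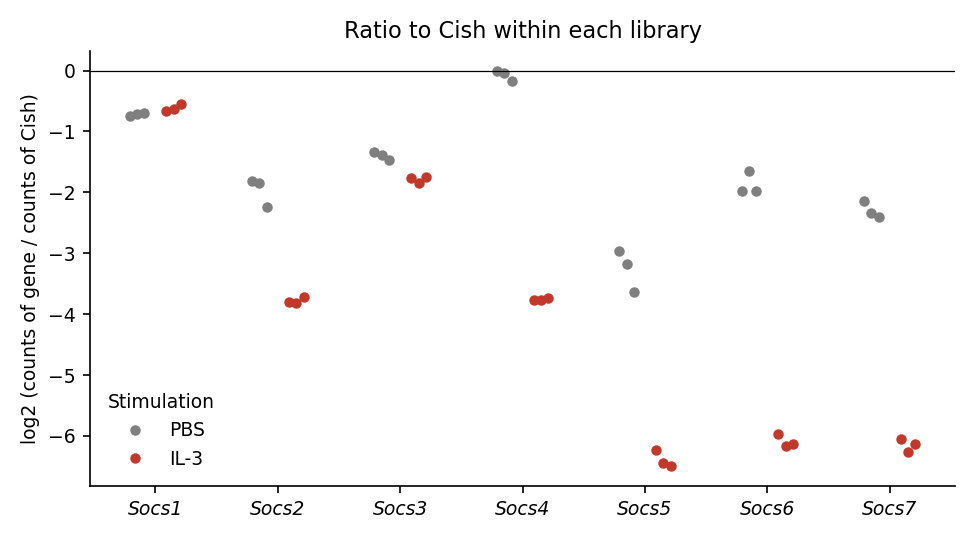
Log2 ratio of the counts of each SOCS gene to those of Cish within each library, PBS in gray and IL-3 in red (n = 3 each). Socs1 lies between -0.75 and -0.54 in all 6 libraries, Socs3 is shifted by -0.39, and Socs4 goes from near 0 to about -3.76.

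Genes whose pattern over the 6 libraries was most like that of a SOCS member were sought among 11218 genes with a mean of at least 5 CPM, by the distance between log2 CPM values centered on each gene's own mean. The nearest gene to both Cish and Socs1 was Asb2, at distances of 0.25 and 0.23. Asb2 also encodes a SOCS box protein, the substrate receptor of a CUL5 ligase that targets filamins. Its expression was 52.1 ± 3.02 CPM in PBS and 929 ± 59.5 CPM with IL-3 (log2 fold change 4.16). Next to Cish came Tgm1 and Il6 (log2 fold changes of 3.99 and 3.95), and next to Socs1 came Serpina3h and Il6 (4.94 and 3.95). Serpina3h had only 0.746 CPM in PBS and 23.2 CPM with IL-3, so it reached the 5 CPM mean through the IL-3 libraries, and the pseudocount of 0.5 used for the distance shrinks its difference between groups. The nearest gene to Socs3 was Akr1c13, an aldo-keto reductase gene, at 0.15, followed by Glipr2 and by Osm, which encodes the IL-6 family cytokine oncostatin M. Osm had a log2 fold change of 3.69. Ier3, Metrnl and Gm4070 were nearest to Socs2, at distances of 0.18 to 0.20 and log2 fold changes of 2.20 to 2.25. Zfp568, Rock1 and Lrrc8c were nearest to Socs4, and Ubtd1, Pla2g4a and Batf to Socs5. Serpina3h and Akr1c13 belong to families of similar genes, so their reads may not be split reliably. With 6 libraries in 2 groups this likeness mostly reflects the size of the difference between groups on that log2 scale.

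The SOCS box links SOCS proteins to a CUL5 ligase, which is one of the routes by which they act. The list of CUL5 ligase genes also holds Cul2, Rbx1 and Ube2m, which are better known from CUL2 and other cullin ligases. Of its 10 genes, 5 rose, none fell and 5 were not called, where 38.2% of all tested genes were called and 18% were higher. The median log2 fold change was 0.22, against -0.0033 for all tested genes. Elob and Eloc, which encode the elongins that bind the SOCS box, rose by 0.31 and 0.22 (edgeR adjusted p 0.000922 and 0.0311). Ube2f, the NEDD8-conjugating enzyme that activates CUL5, rose by 0.39, the ubiquitin ligase gene Arih2 by 0.28 and Rbx1, the RING subunit of other cullin ligases, by 0.22. Cul5 itself was at 62.9 ± 7.96 and 61.3 ± 1.28 CPM and its RING partner Rnf7 at 48.1 ± 2.4 and 52.8 ± 2.46 CPM, and neither was called. Under library totals 1 of the 10 was called, and 3 were called without IL-3 replicate 3.

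Other proteins with a SOCS box went both ways. Of 28 genes listed, 26 were in the table, 18 could be tested, and 4 rose and 4 fell, with a median log2 fold change of -0.01. These counts are near the shares of all tested genes, 18% higher and 20.2% lower. Asb2 stood apart from all others. Asb18 and Asb1 rose by 0.93 and 0.53, while Spsb1, whose product targets the inducible nitric oxide synthase, fell by 1.13 and Wsb2 fell by 0.68 on the log2 scale.

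The list of other brakes of cytokine receptors, which also holds genes that are not only brakes, was likewise mixed. Of its 20 genes 6 were higher and 2 lower, with a median of -0.01. The 8 calls are close to the 38.2% of all tested genes, of which 18% were higher and 20.2% lower. Dok2, an adaptor that dampens RAS signaling, had the largest rise, from 51.4 ± 2.22 to 196 ± 20.6 CPM (log2 fold change 1.93, edgeR adjusted p 1.22e-11). Spred1 and Spred2, inhibitors of the RAS to MAP kinase route, rose by 1.25 and 1.199. The phosphatase gene Ptpn2, whose product removes phosphate from JAK1 and STATs, rose by 0.68, and Sh2b2 fell by 0.74. None of the 20 reached the log2 fold change of Socs2.

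The list of IL-3 family receptor chains, JAK kinases and STAT factors, which also holds members not known for IL-3 signaling, had 5 of 16 genes higher and 3 lower, with a median of 0.02. Of all tested genes 18% were higher and 20.2% lower. Il3ra, encoding the IL-3-binding chain, rose by 0.39. Csf2rb2 and Csf2rb, which encode the beta chains, rose by 1.66 and 1.33, although reads of these near-identical paralogs may not be split reliably, and the kinase genes Jak2 and Jak1 rose by 1.07 and 0.40. Csf2ra, encoding the GM-CSF-binding chain, fell by 0.53. Stat5a was at 34.6 ± 2.66 and 33.4 ± 1.55 CPM and was not called, whereas Stat5b had a log2 fold change of -0.24 (edgeR adjusted p 0.0178).

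Of the 27 receptor and adaptor genes on whose products SOCS proteins are known to act, 25 could be tested, 5 were higher and 7 lower, and the median log2 fold change was -0.21. Of all tested genes 18% were higher and 20.2% lower, and their median log2 fold change was -0.0033. For SOCS1, the interferon-gamma receptor chains Ifngr1 and Ifngr2 moved in opposite directions, by -0.51 and 0.84. For SOCS3, Il6st, the shared chain of IL-6 family receptors, rose by 0.75, whereas Il6ra, the IL-6-binding chain, had a log2 fold change of -0.54 and was called lower. Csf3r, the G-CSF receptor, was not called at -0.49 (edgeR adjusted p 0.0603). Il4ra, a reported partner of SOCS5, had the largest rise of the list, from 54.3 ± 2.32 to 167 ± 6.03 CPM (log2 fold change 1.62), and Il2rg rose by 0.93. Kit, for SOCS6, rose by 0.58, and it is also a mast cell marker, a group whose summed level was higher with IL-3. The part of mast cells in this rise was not tested. Epor and Il7r fell by 1.34 and 1.22 on the log2 scale. Ghr, the partner of SOCS2, and Irs1 were too rare to be tested, with 39 and 3 counts over all 6 libraries, and Egfr was at 2.51 ± 0.589 and 1.96 ± 0.195 CPM. Csf1r, which also fell (log2 fold change -0.80), is a marker of the monocytes and macrophages whose summed marker level was lower in IL-3.

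**Figure D5:**
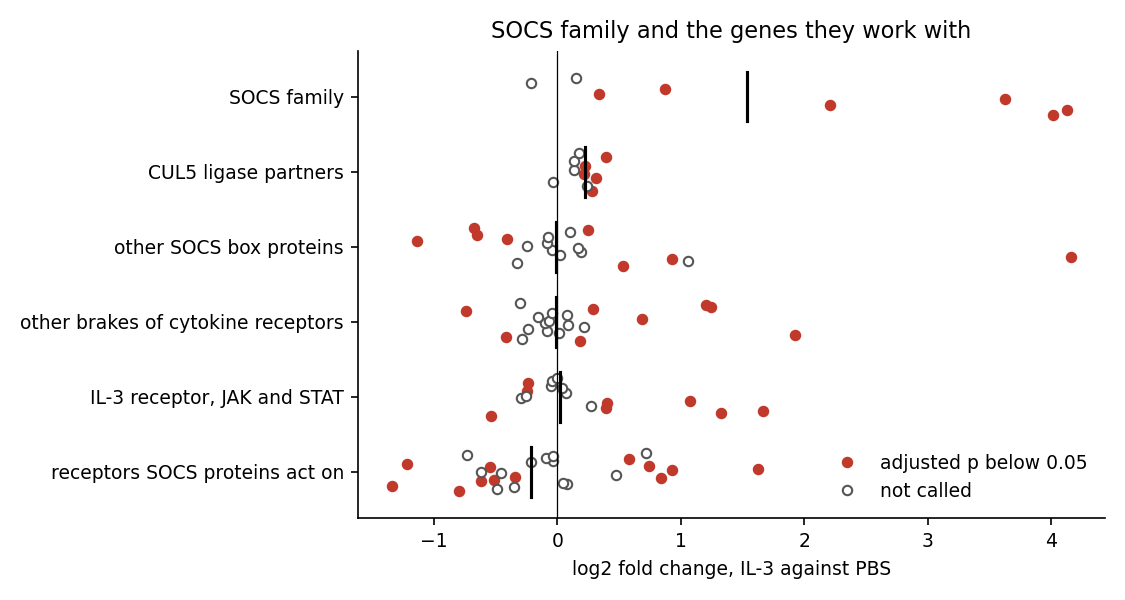
Log2 fold change of every tested gene of the SOCS family and of 5 lists of genes that work with it, filled red where the adjusted p was below 0.05, with a black bar at each list's median. The SOCS median is 1.54, the medians of the 5 other lists lie between -0.21 and 0.22, and Asb2 is the point at 4.16 among other SOCS box proteins.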

How the data were processed

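Bulk RNA-seq was performed on 6 BMBA libraries. The authors deposited raw read counts per gene symbol. According to the study's methods, poly(A) RNA of lysed cells was amplified as cDNA and fragmented, whereas the labels name a column kit for extraction. Reads were trimmed with Cutadapt 3.4 and mapped with Bowtie2 to reference RNA, of GRCm38 in the methods and GRCm39 in the submitters' processing notes. No molecular identifiers are described, so PCR copies may have been counted as reads. A count of 0 allows up to 3 counts, or 0.214 to 0.285 CPM, for counting error only.

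The main test used edgeR 4.0.16 under R 4.3.3 (filterByExpr, TMM, quasi-likelihood F test, group as the only term), as the TCC package of the study relies on edgeR. Tests were two-sided with Benjamini-Hochberg adjustment over all tested genes, and SE was derived from F. No pair of libraries looked like 1 library deposited as 2, since the chi-square per degree of freedom was at least 2.94. On simulated data for this comparison (16449 genes tested), 78.7% of 197 genes changed 2-fold were called, as were 0.142% of unchanged genes. The simulation drew counts from the spread fitted to these data and changed few genes, in random directions. In the data 38.2% of tested genes were called, so these shares do not carry over to the calls reported here. Log2 CPM for profiles used a pseudocount of 0.5. Coordinates, lengths and shared 50-base stretches came from GENCODE M21 (GRCm38), promoter windows from RefSeq.

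The members and gene lists were chosen with earlier results of these data known. Named from each list were the largest rise, the largest fall and up to 3 further called genes of smallest adjusted p, plus known partners of a SOCS member. The motifs, Gm17040, Gm17041, Eloc, Il3ra, Cul2, Ube2m, Cul5, Rnf7, Stat5a, Stat5b, Ghr, Irs1 and the genes neighbouring a member on the chromosome were chosen after values were seen. Alternatives were DESeq2 1.42.0 size factors and its Wald test, library totals, other filters, limma-voom (limma 3.58.1), a replicate block, leaving out each library, a count of 0.5 in ratios, and coding length.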

Additional observations from a re-analysis of the deposited data

How the results depend on the processing

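All 6 rises held under each of the 13 alternatives of the fit, with log2 fold changes of 3.85 to 4.08 for Cish, 3.96 to 4.20 for Socs1, 3.46 to 3.65 for Socs3, 2.04 to 2.25 for Socs2, 0.71 to 0.97 for Socs5 and 0.17 to 0.35 for Socs4. With 1 library left out, the number of members called higher stayed at 6 and that called lower at 0. Library totals without TMM shift all log2 fold changes to a median of -0.17, which turned Socs7 to -0.0075 and brought Socs6 to -0.37, so that 1 member was called lower, with 1698 genes called higher and 5030 called lower. Higher genes then made up 25.2% of calls in place of 47.1%. The CUL5 ligase list then had 1 called gene, and it had 3 to 6 with 1 library left out. The 4 other lists of genes that work with the family kept their counts of called genes within 1.5-fold, and the marker lists were not run under the alternatives.

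Coding length in place of transcript length changed the shares of the family level. In PBS they became 29.96% for Cish, 22.1% for Socs1, 12.97% for Socs3, 16.8% for Socs4 and 1.52% for Socs5. In IL-3 they became 43.8% for Cish, 34.8% for Socs1, 4.15% for Socs2, 14.5% for Socs3, 1.91% for Socs4 and 0.252% for Socs5. Socs7 then held 0.273% in IL-3, above Socs5. Adding 0.5 to the counts changed the sign of none of the 7 ratios.

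With the replicate number as a block (replicate block), 2842 genes were higher and 3247 lower, and the calls of the 8 members were the same. Libraries sharing a number did not deviate together (correlations of -0.029 to 0.00043), and no library correlated best with its own number. Socs5 had the fewest counts of the family, with 81 to 119 in the PBS libraries, and was called under each alternative.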

Other observations

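The nearest tested protein-coding genes on either side of a SOCS member had smaller changes than the strongly raised members. Mapkapk3, the gene of a kinase downstream of p38, lies 6.15 kb from Cish and rose by 1.12 on the log2 scale (188.7 to 410 CPM, edgeR adjusted p 6.17e-11), and Hemk1 on the other side rose by 0.62. Pgs1, which encodes an enzyme of cardiolipin synthesis and lies 16.2 kb from Socs3, rose by 1.02, while Tha1 on its other side fell by 0.84. Clec16a and Rmi2 beside Socs1 rose by 0.39 and 0.51. Cradd beside Socs2 fell by 0.52, and Mrpl42 on the other side was not called at -0.22.

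Socs4 and Mapk1ip1l, which lie 2.16 kb apart on chromosome 14, had nearly the same log2 fold change, 0.33 and 0.34. On the other side Wdhd1 lies 73 bases from Socs4 and was not called at -0.40 (edgeR adjusted p 0.0619). Neighbouring genes were not compared with other genes at the same distances.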
